A study of Homo sapiens with 10 samples.

Results

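The genes described here are 39 interferon-inducible genes and close relatives, chosen by name as known antiviral effectors, sensors and signalling genes. Each gene was represented by the mean of all array rows that list it as their only gene symbol. Of the 39 genes, 38 had such rows, out of 4713 genes in the table, and they carried 391 of 54806 rows, with 3 to 22 rows per gene and a median of 10. USP18, the protease that removes ISG15 from proteins, had no row and is not analysed here. The measured genes lie on chromosome 1 (16 genes), chromosome 10 (5), chromosome 11 (13) and chromosome 12 (4), because almost all genes of the table lie on those chromosomes. Among the 39 are 4 genes that are not generally known as interferon-induced, the TRIM family members TRIM29, TRIM3 and TRIM66 and the corepressor IRF2BP2, and counts are given below with and without them.

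RNA was measured on Affymetrix HG1.0ST arrays in SW620, a human colon cancer cell line, in 3 groups, none of which the labels describe as treated with interferon or any other agent. The parental group (4 arrays) was the cultured line itself, and the other groups were liver metastasis derivatives (3 arrays) and lung metastasis derivatives (3 arrays), cells recovered from metastases that this line formed in balb/c nude mice and grown in culture again before RNA was taken. Nude mice lack a thymus and so most T cells, while other host cells that respond to or produce interferon remain. The labels call the arrays biological replicates but do not say whether they are separate metastases, mice or cultures, so p-values measure only the spread between these arrays.

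Interferons are secreted proteins that cells release on sensing viral or misplaced nucleic acid. Type I and III interferons signal through receptor-bound kinases such as JAK1 to a transcription factor complex that contains STAT2 and binds the interferon-stimulated response element in the promoters of target genes. The targets include IFIT and IFITM proteins, which block viral RNA translation and virus entry, oligoadenylate synthetases (OAS), which activate RNase L, guanylate-binding proteins (GBP), the ubiquitin-like protein ISG15 and several TRIM ubiquitin ligases, and many colon cancer lines keep some of these genes on at a low level without added interferon.

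The response element is a shared sequence feature of these genes that did not enter their choice. Its core was searched as GAAA, any 2 bases and GAAA again, on both strands, with matches allowed to overlap each other, in RefSeq promoter windows of 300 bases (250 before and 50 after the start, build GRCh38.p14). Of 35116 promoters in the table, 3.57% held a match. A promoter was listed for 29 of the 38 measured genes, and 18 of these 29 (62.1%) held a match, while 11 did not, among them OAS1, GBP6, STAT2 and ADAR. The 62.1% is a share of genes, counted with a match in any of their listed promoters, while the 3.57% is a share of single promoters. A match is a description of the letters and not a measured binding site. The stretches below are shown because they belong to the genes that carry the results or serve as their reference, with the half-sites GAAA, or TTTC where the match lies on the other strand, in capitals. A further match that runs across the listed start in IFITM1 and in IFIT5 is not marked, nor is one of IFI44L outside the stretch.
IFITM3, chr11:320868-320930, minus strand: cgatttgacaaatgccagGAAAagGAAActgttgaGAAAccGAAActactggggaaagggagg
IFITM1, chr11:313982-314027, plus strand: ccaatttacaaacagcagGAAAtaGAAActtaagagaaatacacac
IFIT5, chr10:89414505-89414567, plus strand: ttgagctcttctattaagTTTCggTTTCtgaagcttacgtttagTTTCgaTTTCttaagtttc
IFIT1, chr10:89392489-89392547, plus strand: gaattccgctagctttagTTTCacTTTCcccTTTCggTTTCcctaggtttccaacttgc
IFI44L, chr1:78620357-78620402, plus strand: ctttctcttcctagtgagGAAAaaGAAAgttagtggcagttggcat
ISG15, chr1:1013366-1013417, plus strand: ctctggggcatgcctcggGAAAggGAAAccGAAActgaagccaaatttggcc
All of these stretches lie upstream of the listed start. As described below, IFITM3 rose in both kinds of derivative, IFI44L rose in lung derivatives and IFIT5 fell in liver derivatives. The adjusted p of IFIT1, IFITM1 and ISG15 missed 0.05. These genes were picked for their results, so their differing courses tell nothing about the match. The median difference from the parental line was 0.04 in liver and 0.08 in lung derivatives over the 18 genes with a match. Over the 11 without, it was -0.06 and 0.12. A link between match and change was not tested.

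Parental array 4 stood apart from the other parental arrays and shared a pattern with the lung arrays, a split known from an earlier look at these data. Its value lay nearer to the lung mean than to the mean of parental arrays 1 to 3 in 23 of the 38 genes. This was counted in the 38 genes only, with no share over all genes, and the row that follows was picked to show the pattern. Row 11 of TRIM66, a chromatin-associated TRIM protein, shows the pattern: parental arrays 1 to 4 read 9.23, 10.06, 9.72 and 11.58, the liver arrays 9.57, 9.59 and 9.80, and the lung arrays 11.93, 12.08 and 11.84, all in log2 units. The sources used here give no cause for the split. For that reason the called genes and the counts are also given from a fit with this array set as a further term (the set term), in which lung derivatives are in effect compared with parental array 4 alone, and the member counts that move by over 1.5 times without parental array 4 are given without it.

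**Figure D1:**
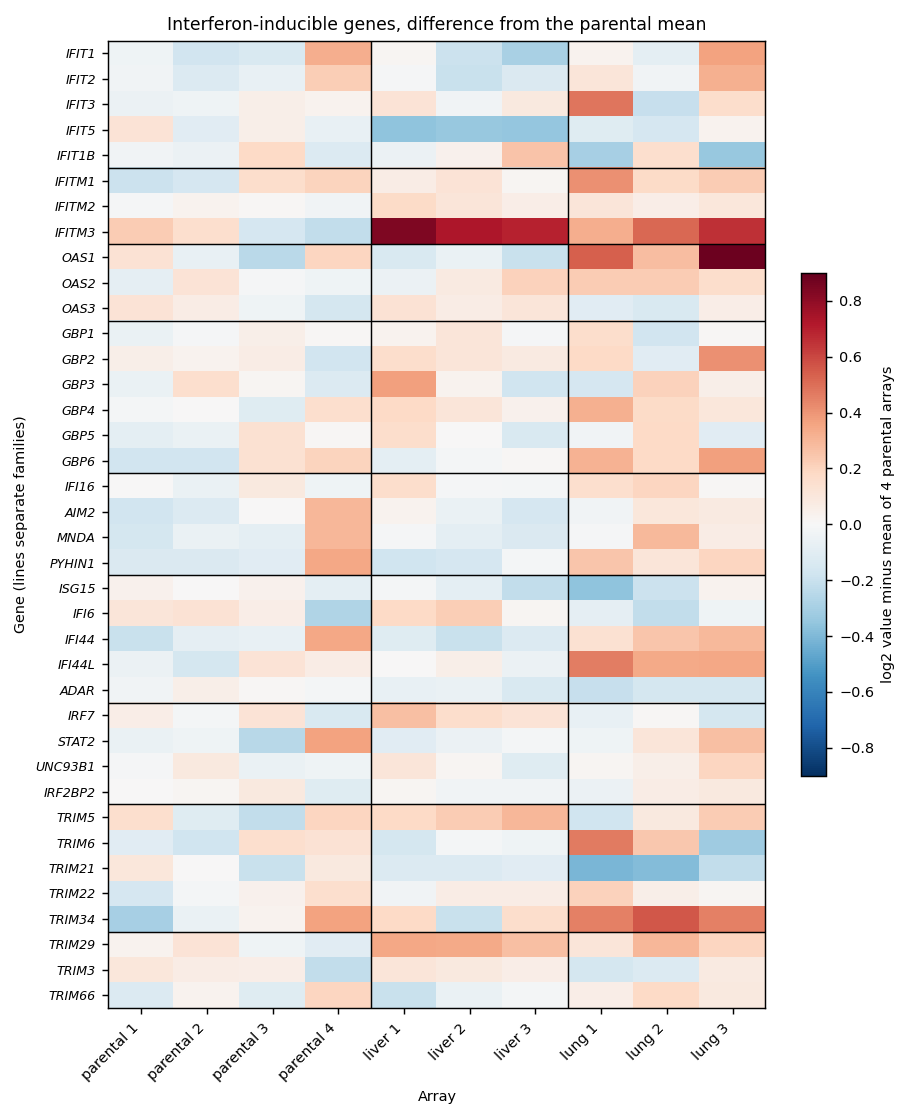
Colour shows the log2 value of each of the 38 genes (rows, grouped by family) on each of the 10 arrays (columns) minus the mean of the 4 parental arrays. IFITM3 is darkest red across the 3 liver arrays, OAS1 is higher on the 3 lung arrays, IFIT5 is lower on the 3 liver arrays, and parental array 4 differs from parental arrays 1 to 3 in genes such as IFI6, PYHIN1 and IFI44.

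The array signal was low for many of these genes. In mean signal over the 10 arrays, 19 of the 38 lay in the dimmest 25% of the 4713 genes, and 5 lay in the brightest 25% (ISG15, IFITM2, ADAR, IRF2BP2 and TRIM29). Probes differ in how brightly they read the same amount of RNA, so this describes the signal and not the order of RNA levels. The dimmest gene was IFI44, an interferon-induced protein of the cytoplasm, with 4.55, 4.67, 4.68 and 5.10 on parental arrays, 4.64, 4.55 and 4.63 on liver arrays and 4.89, 5.00 and 5.04 on lung arrays. The brightest was IFITM2, which acts against virus entry in endosomes, with 12.09, 12.13, 12.11 and 12.07 on parental arrays, 12.27, 12.21 and 12.16 on liver arrays and 12.21, 12.16 and 12.20 on lung arrays. Both groups of derivatives lay above every parental array for IFITM2, by 0.11 (SE 0.05) and 0.09 (SE 0.05), with limma adjusted p of 0.309 and 0.251.

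The first comparison asked how liver metastasis derivatives differed from the parental line. IFITM3, a membrane protein that blocks fusion of viruses in endosomes, was higher by 0.75 on the log2 scale, TRIM29 was higher by 0.32, and IFIT5, which binds viral RNA ends, was lower by 0.35. The other 35 genes did not pass the test and lay between -0.15 (IFIT1) and 0.23 (TRIM5). A gene was called at a limma adjusted p under 0.05, adjusted over all 4713 genes, and 3 of 38 genes (7.89%) were called, against 7.83% of all genes. The share is close to that of all genes, with 2 of 38 higher beside 4.33% of all genes and 1 of 38 lower beside 3.50%. Without TRIM29, TRIM3, TRIM66 and IRF2BP2, 2 of 34 were called. The median difference was 0.02 over the 38 genes and 0.01 over all genes.

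IFITM3 read 8.69, 8.61, 8.31 and 8.24 on the parental arrays and 9.30, 9.19 and 9.15 on the liver arrays. Every liver array lay above every parental array. The group means were 8.46 ± 0.22 (SD, n = 4) and 9.21 ± 0.08 (SD, n = 3), a 1.68-fold difference with an SE of 0.12 on the log2 scale and a limma adjusted p of 0.00183. In the fit with a set term the difference was 0.68 with a limma adjusted p of 0.00315.

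IFIT5 read 8.12, 7.90, 8.05 and 7.93 on parental arrays and 7.64, 7.66 and 7.65 on liver arrays. The liver arrays lay below all parental arrays and close together (SD 0.01). The mean fell by 0.35 (SE 0.07; 1.28-fold lower), with a limma adjusted p of 0.00954. None of its 5 rows was called alone, and 4 of the 5 were lower, with its brightest row at -0.34.

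TRIM29, an epithelial regulator of innate signalling, read 9.75, 9.84, 9.68 and 9.62 on parental arrays and 10.07, 10.06 and 9.99 on liver arrays. All liver arrays were above all parental arrays, by 0.32 on average (SE 0.07; 1.25-fold; limma adjusted p of 0.017). The call was lost without liver array 1 (limma adjusted p of 0.0794) or liver array 2 (0.0862), while the difference stayed at 0.30 and 0.31.

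Within families, the liver derivatives differed from the parental line in single genes. Of the IFIT family 1 of 5 was called (IFIT5), and IFIT1, IFIT2, IFIT3 and IFIT1B differed by -0.15, -0.11, 0.06 and 0.09. Of the IFITM family 1 of 3 was called, and IFITM1, a relative at the cell surface, differed by 0.07. No OAS gene (-0.13 to 0.11), GBP gene (-0.03 to 0.12), PYHIN DNA sensor (IFI16, AIM2, MNDA and PYHIN1, -0.11 to 0.05) or member of the group of ISG15, IFI6, IFI44, IFI44L and ADAR (-0.14 to 0.13) passed limma's test, and 0 of these 18 genes had an unadjusted p under 0.05. Of all 4713 genes 872 had an unadjusted limma p under 0.05 in this comparison. Of IRF7, STAT2, UNC93B1 and IRF2BP2, which control the response, 0 were called by limma and 1 had an unadjusted p under 0.05, IRF7 at 0.17 (SE 0.08). The groups did not overlap for 6 of 38 genes (15.8%), namely IFIT5, IFITM2, IFITM3, GBP2, ADAR and TRIM29, against 20.2% of all genes.

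Row by row, 4 of 391 rows (1.02%) were called in liver derivatives, all higher, against 2.20% of all rows. They were 3 of the 5 rows of IFITM3 and 1 of the 14 rows of TRIM29. In IFITM3, row 2 read 10.02, 9.72, 9.63 and 9.41 on parental arrays and from 10.94 to 11.05 on the 3 liver arrays, a difference of 1.30 (SE 0.16, limma adjusted p of 0.0026 over rows). Rows 1 and 4 were higher by 0.77 and 1.09, and rows 3 and 5 differed by 0.30 each. The set term left the same 3 of 38 called, against 8.95% of all genes.

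**Figure D2:**
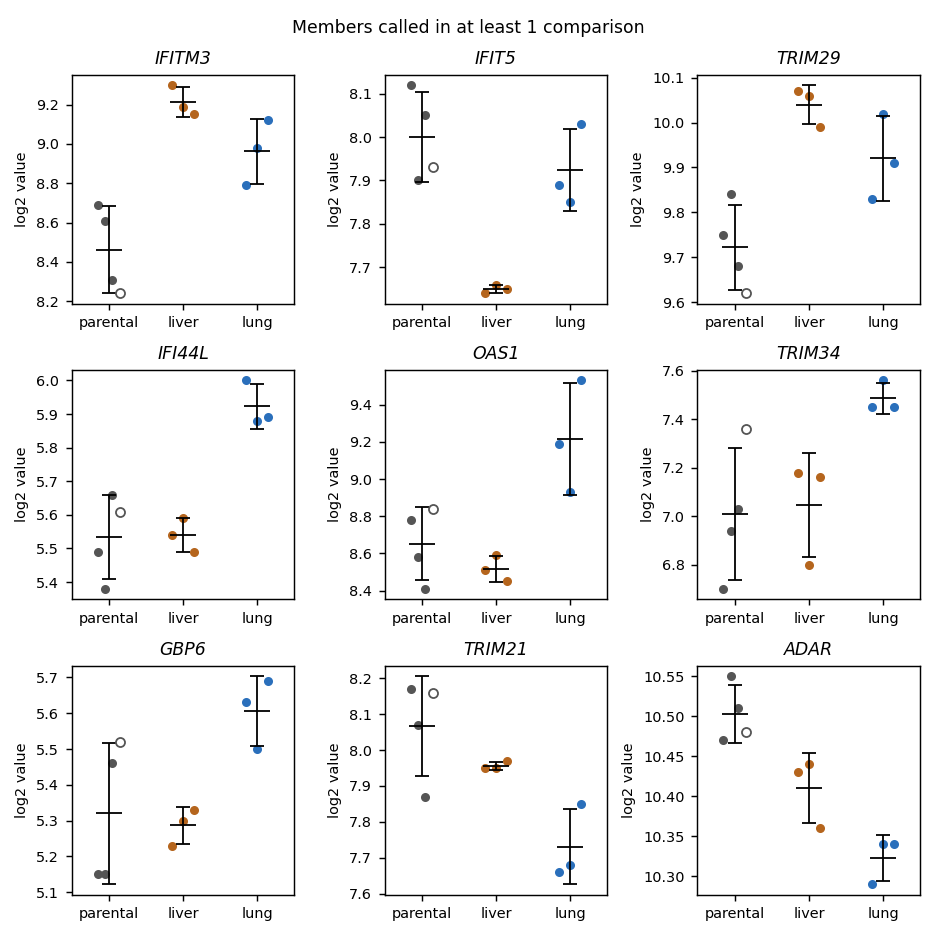
Each panel plots the mean log2 value of 1 of the 9 genes called in at least 1 comparison, by array, for parental, liver and lung cells, with bars for the group mean ± SD. The open circle is parental array 4. For IFITM3 both groups of derivatives lie above all 4 parental arrays, and for TRIM34 and GBP6 parental array 4 is the parental array nearest to the lung arrays.

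The second comparison asked how lung metastasis derivatives differed from the parental line. OAS1 was higher by 0.56, IFITM3 by 0.50, TRIM34 by 0.48, IFI44L by 0.39 and GBP6 by 0.29, while TRIM21 was lower by 0.33 and ADAR by 0.18 (log2 scale). With 7 of 38 genes called (18.4%), fewer were called than among all genes (30.1%). Higher genes were 5 of 38 beside 12.9% of all genes, and lower genes 2 of 38 beside 17.3%. All 7 are among the 34 genes left without TRIM29, TRIM3, TRIM66 and IRF2BP2. The median difference was 0.11 over the 38 genes, of which 29 (76.3%) were above 0, and -0.01 over all genes, of which 48.9% were above 0. Among the lists of other genes read below, that share ran from 33.3% to 90%. The lowest was that of colon carcinoma and simple epithelium genes, the highest that of hepatocyte genes, and leukocyte genes had 81.8%. The set term moved the members' median to 0.05, with 22 of 38 (57.9%) above 0 beside 49.6% of all genes. After the set term was added, limma called only IFITM3, 1 of 38 against 5.75% of all genes. Without parental array 4, 13 of 38 were called, 10 higher and 3 lower, against 41.4% of all genes in that fit, and these included the 7.

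IFITM3 read 8.79, 8.98 and 9.12 on lung arrays, above all parental arrays. The lung mean was 8.96 ± 0.16 (SD, n = 3), 1.42-fold above the parental mean, with a difference of 0.50 (SE 0.12) and a limma adjusted p of 0.0109. The set term gave a difference of 0.73 and a limma adjusted p of 0.0266. IFITM3 was the only one of the 38 genes called in both kinds of derivative, which share the parental arrays.

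Its 5 rows did not move alike in lung derivatives. Rows 1, 2 and 4 were higher by 1.30 (SE 0.15), 0.95 (SE 0.16) and 1.46 (SE 0.21), and row 3 was lower by 0.78 (SE 0.17, limma adjusted p of 0.0223). Row 5 was not higher either, and its difference was not called. Row 3 read 7.66, 7.65, 7.50 and 7.17 on parental arrays, 8.01, 7.64 and 7.74 on liver arrays and 6.64, 6.49 and 7.01 on lung arrays, with the lung arrays below all others. Rows 1 and 2 were still called with the set term, at 0.95 and 1.23 (limma adjusted p of 0.0446 and 0.0363). IFITM1, IFITM2 and IFITM3 are near-identical neighbours on chromosome 11 whose probes can share targets, so their separate values are uncertain. IFITM1 read 6.89, 6.93, 7.24 and 7.28 on parental arrays and 7.49, 7.25 and 7.31 on lung arrays, which overlapped, with a difference of 0.27 (SE 0.10, limma adjusted p of 0.0722).

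OAS1, which makes the oligoadenylate that activates RNase L, read 8.78, 8.58, 8.41 and 8.84 on parental arrays, 8.51, 8.59 and 8.45 on liver arrays and 9.19, 8.93 and 9.53 on lung arrays. All lung arrays lay above all other arrays, and lung array 3 was the highest. The difference from the parental line was 0.56 (SE 0.14; 1.48-fold; limma adjusted p of 0.0126), and it was 0.37 with the set term (limma adjusted p of 0.28). Of its 10 rows, 9 had a difference above 0 in lung derivatives and 3 were called higher, led by row 5 at 0.71 (SE 0.18). Row 1 of OAS1 read 8.25, 8.21, 8.11 and 9.34 on parental arrays and 9.17, 9.62 and 9.59 on lung arrays, so parental array 4 lay among the lung arrays there. The relatives OAS2 and OAS3 differed by 0.21 (SE 0.08, limma adjusted p of 0.057) and -0.05 (SE 0.08).

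**Figure D3:**
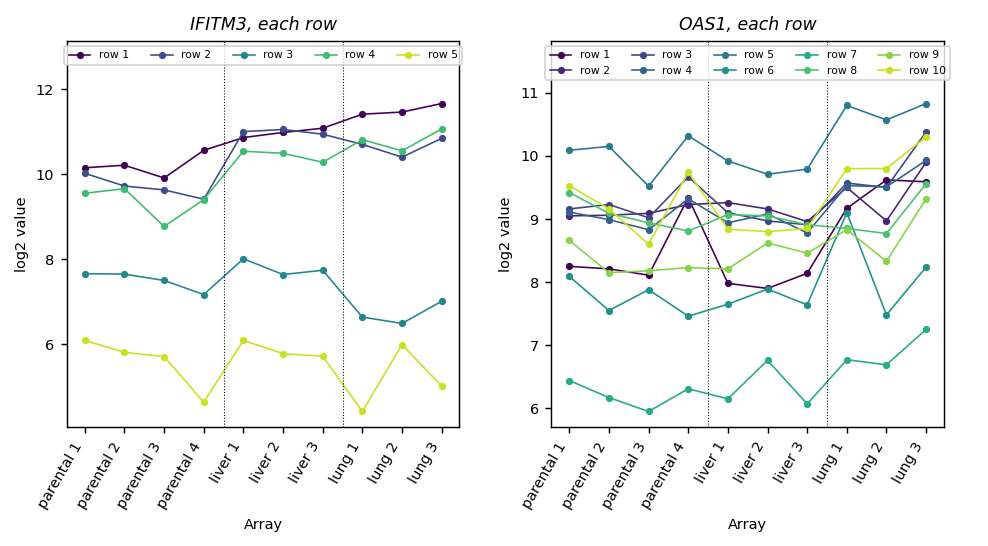
Each line follows 1 array row of IFITM3 (left, 5 rows) or OAS1 (right, 10 rows) over the 10 arrays, as log2 values. IFITM3 rows 1, 2 and 4 step up in liver and lung derivatives while row 3 steps down in lung derivatives, and several OAS1 rows, such as row 1, are as high on parental array 4 as on lung arrays.

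IFI44L, a relative of IFI44 that is widely used as a marker of interferon exposure, read 5.49, 5.38, 5.66 and 5.61 on parental arrays and 6.0, 5.88 and 5.89 on lung arrays. The lung arrays lay above all others, in a range near the bottom of the array signal. It was higher by 0.39 (SE 0.08; 1.31-fold; limma adjusted p of 0.00498), and by 0.31 with the set term (limma adjusted p of 0.125). Its partner IFI44 differed by 0.23 (SE 0.11, limma adjusted p of 0.146).

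TRIM34, a TRIM protein that restricts retroviral capsids together with TRIM5, read 6.70, 6.94, 7.03 and 7.36 on parental arrays and 7.45, 7.56 and 7.45 on lung arrays. Parental array 4 came within 0.13 of the lung mean. The difference of 0.48 (SE 0.14, limma adjusted p of 0.0248) was 0.13 with the set term. The call was also lost without parental array 1 or 2 or lung array 1 or 2. Of its 3 rows 2 were higher, and only row 3 was called, which rose much further than the mean, as given below. TRIM34 shares a transcript with its neighbour TRIM6, which differed by 0.13 (SE 0.16).

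GBP6, a guanylate-binding protein, read 5.15, 5.15, 5.46 and 5.52 on parental arrays and 5.63, 5.50 and 5.69 on lung arrays. Parental array 4 overlapped the lung arrays. The difference of 0.29 (SE 0.10) had a limma adjusted p of 0.0496 and was 0.09 with the set term. It was 0.03 in the brightest row, and the call was lost without parental array 1 or 2, any of the 3 liver arrays or lung array 1 or 3. The other GBP genes, GBP1 to GBP5, differed by 0.00, 0.17, 0.04, 0.19 and 0.02 and were not called.

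TRIM21, a cytosolic antibody receptor and ubiquitin ligase, read 8.17, 8.07, 7.87 and 8.16 on parental arrays and 7.66, 7.68 and 7.85 on lung arrays. All lung arrays lay below all parental arrays, with a difference of -0.33 (SE 0.08; 1.26-fold lower; limma adjusted p of 0.0127). It was -0.43 with the set term (limma adjusted p of 0.062), and the call was lost without lung array 1 (0.052). ADAR, which edits adenosine to inosine in double-stranded RNA, read 10.47, 10.55, 10.51 and 10.48 on parental arrays and 10.29, 10.34 and 10.34 on lung arrays. The lung arrays were the lowest, by 0.18 on average (SE 0.05; 1.13-fold lower; limma adjusted p of 0.0268). In the fit with a set term ADAR differed by -0.16 (limma adjusted p of 0.215), and with arrays centred on their medians by -0.14 (not called). Its call was also lost without parental array 1, 2 or 3 or lung array 1 or 3.

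ISG15, the ubiquitin-like modifier, is among the genes most sensitive to type I interferon. It read 10.66, 10.62, 10.66 and 10.53 on parental arrays, 10.60, 10.53 and 10.40 on liver arrays and 10.26, 10.43 and 10.65 on lung arrays. The 3 groups overlapped, with differences of -0.11 (SE 0.09) in liver and -0.17 (SE 0.09) in lung derivatives. IFI6, an interferon-induced membrane protein, differed by 0.13 and -0.12 (SE 0.10 each), and its rows went both ways in lung derivatives, with row 5 higher by 0.71 and row 2 lower by 1.16 among 3 called rows of 7. The IFIT family had 0 of 5 genes called by limma in lung derivatives (0 at an unadjusted p under 0.05), from -0.16 (IFIT1B) to 0.14 (IFIT3). The PYHIN sensors had 0 of 4 (0 at an unadjusted p under 0.05), from 0.05 (AIM2) to 0.18 (PYHIN1). STAT2, IRF7, UNC93B1 and IRF2BP2 differed by 0.11, -0.08, 0.09 and 0.04, none of them called by limma and 0 at an unadjusted p under 0.05. Of all 4713 genes 1993 had an unadjusted limma p under 0.05 in lung derivatives. TRIM5, TRIM22, TRIM29, TRIM3 and TRIM66 differed by 0.04, 0.09, 0.20, -0.07 and 0.12 and were not called. TRIM29 came closest to a call (limma adjusted p of 0.0547), with 12 of its 14 rows above 0 and a difference of 0.30 with the set term. Its difference between lung and liver derivatives, -0.12, was not called either (limma adjusted p of 0.269).

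**Figure D4:**
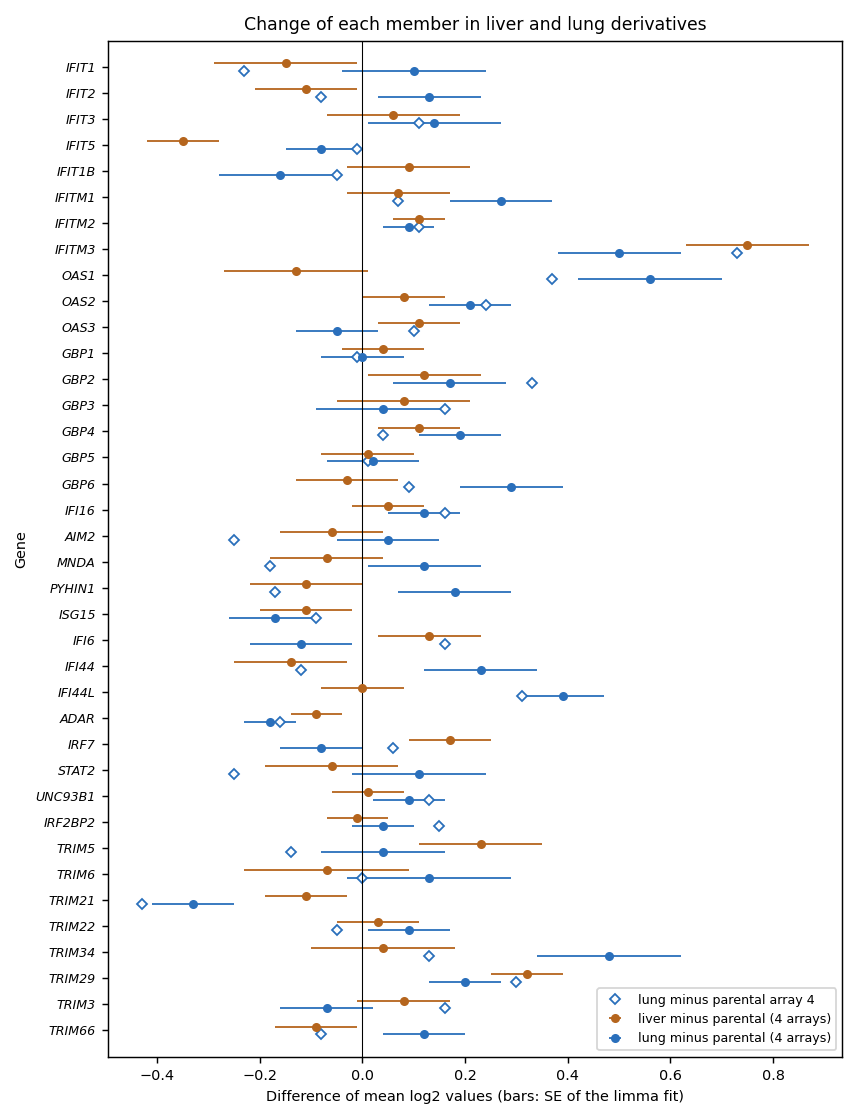
Points give the difference of mean log2 values from the 4 parental arrays for each of the 38 genes, liver derivatives in brown and lung derivatives in blue, with bars for the SE of the limma fit. Open diamonds give lung derivatives minus parental array 4 alone. For IFITM3 the diamond lies at 0.73, further from 0 than the blue point at 0.50, and for TRIM34 and GBP6 it lies near 0, at 0.13 and 0.09.

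The groups did not overlap for 8 of 38 genes (21.1%) in lung against parental cells, against 32.3% of all genes. Those were IFI44L, IFITM2, IFITM3, OAS1, OAS2, TRIM21, TRIM34 and ADAR. Row by row, 41 of 391 rows (10.5%) were called, 29 higher and 12 lower, against 13.1% of all rows. They fell in 22 genes, and 3 genes had called rows in both directions. The set term left 3 rows called, the 2 rows of IFITM3 above and row 1 of MNDA at -1.02 (limma adjusted p of 0.0363).

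Some single rows moved further than the mean of their gene. The rows with the smallest adjusted p that were higher were row 19 of TRIM3 (0.68), row 1 of OAS2 (0.93), row 5 of GBP6 (0.58), row 14 of TRIM29 (1.26), row 5 of IRF2BP2 (0.74), row 7 of IFI44 (1.07), row 2 of TRIM22 (0.85), row 2 of IFI44L (1.13), row 3 of IFITM1 (0.71), row 3 of TRIM34 (1.49), row 11 of TRIM66 (1.80), row 6 of GBP5 (0.90), row 7 of UNC93B1 (0.41) and row 8 of MNDA (0.30). Those that were lower were row 1 of IRF7 (-0.92), row 16 of ADAR (-0.58), row 8 of TRIM21 (-1.71), row 2 of OAS3 (-1.13) and row 5 of IFIT5 (-0.51). Row 1 of IRF7, the master factor of type I interferon genes, read 8.67, 8.76, 8.61 and 8.34 on parental arrays, 8.78, 8.82 and 8.95 on liver arrays and 7.72, 7.39 and 7.90 on lung arrays. In that row all lung arrays were lower than all others, while the mean of the 12 IRF7 rows differed by -0.08. Row 16 of ADAR read 11.07, 11.09, 11.01 and 10.92 on parental arrays, 11.08, 11.07 and 11.15 on liver arrays and 10.31, 10.53 and 10.47 on lung arrays, again with the lung arrays below all others.

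The third comparison set lung against liver derivatives. OAS1 was higher in lung derivatives by 0.70 (SE 0.15; 1.62-fold), IFI44L by 0.38 (SE 0.08; 1.31-fold) and IFIT5 by 0.27 (SE 0.08; 1.21-fold), with limma adjusted p of 0.0156, 0.0156 and 0.0308. For these 3 genes every lung array lay above every liver array. In IFIT5, however, only 2 of the 5 rows were higher in lung than in liver derivatives, 1 of them called. IFIT5 read 7.89, 7.85 and 8.03 on lung arrays, which overlapped the parental arrays and differed from them by -0.08 (SE 0.07). Its call against liver derivatives was also lost without liver array 1 or lung array 3. The called share was 3 of 38 (7.89%) against 19.9% of all genes, with 3 of 38 higher beside 8.02% of all genes and 0 of 38 lower beside 11.9%. At an unadjusted limma p under 0.05, 3 genes lay lower, IRF7 at -0.25 (SE 0.08, limma adjusted p of 0.0505), IFI6 at -0.25 and TRIM21 at -0.23. Of all 4713 genes 1037 lay lower at that threshold. IFITM3 differed by -0.25 (SE 0.13, limma adjusted p of 0.168), and its brightest row by 0.54.

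Once the set term was added, 0 of 38 genes were called by limma between lung and liver derivatives, against 0.0849% of all genes. At an unadjusted limma p under 0.05 there were 3 of 38, against 454 of all 4713 genes in that fit. No gene was called without liver array 2, liver array 3 or lung array 1, and 10 of 38 were called without parental array 4, against 32.3% of all genes in that fit. The groups did not overlap for 15 of 38 genes (39.5%) against 46.0% of all genes. Row by row, 42 of 391 rows (10.7%) were called, 27 higher and 15 lower, against 12.6% of all rows, in 22 genes of which 6 had called rows both ways. The largest differences among called rows were those of row 13 of PYHIN1 at 2.79, row 11 of TRIM66 at 2.30 and row 3 of TRIM34 at 2.0. In all of these rows parental array 4 was the highest parental array, and in PYHIN1, at 6.75, it lay among the lung arrays (6.49, 7.08 and 6.12). Row 2 of OAS3 (-1.61), row 2 of IFI6 (-1.22), row 1 of IRF7 (-1.18) and row 3 of IFITM3 (-1.08) were lower in lung derivatives. Row 1 of OAS1 was higher by 1.46, row 1 of IFIT5 by 1.44, row 7 of IFI44 by 1.24, row 4 of STAT2 by 1.20, row 7 of IFI44L by 1.19 and row 4 of GBP6 by 1.18. In the 9 other genes with a called row and in PYHIN1, the row with the smallest adjusted p was lower for ADAR (row 16, -0.66), PYHIN1 (row 5, -0.51) and TRIM5 (row 9, -0.51) and higher for TRIM29 (row 14, 1.43), OAS2 (row 1, 0.87), TRIM22 (row 2, 0.81), TRIM3 (row 8, 0.78), IRF2BP2 (row 5, 0.75), UNC93B1 (row 5, 0.74) and GBP5 (row 9, 0.51). PYHIN1 thus had called rows in both directions, while the mean of its 13 rows differed by 0.30 (SE 0.12, limma adjusted p of 0.0926).

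Other interferon-induced genes of the same chromosomes were read from a list of 24, of which 21 were measured. In liver derivatives 1 of 21 was called, UBE2L6, beside 7.83% of all genes, and in lung derivatives 9 of 21, beside 30.1% of all genes. Of these 9, 8 were higher and 1 lower, while of all genes 12.9% were called higher and 17.3% lower in lung derivatives. UBE2L6, the enzyme that conjugates ISG15 to its targets, read 7.92, 7.93, 7.90 and 7.82 on parental arrays, 8.62, 8.56 and 8.43 on liver arrays and 8.63, 8.35 and 8.72 on lung arrays. All derivative arrays lay above all parental arrays. It was 1.56-fold higher in liver (0.64, SE 0.09, limma adjusted p of 7.6e-04) and 1.60-fold higher in lung derivatives (0.67, SE 0.09, limma adjusted p of 5.26e-04), and after adding the set term it was the only gene of the list called in lung derivatives (0.75, limma adjusted p of 0.0105).

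The other genes called in lung derivatives were CH25H, which makes the antiviral sterol 25-hydroxycholesterol (1.15, SE 0.20), the death receptor FAS (0.54), the inflammatory protease CASP1 (0.42), the lysosomal protease CTSS (0.39), the complement protease C1R (0.28), the endosomal transporter SLC15A3 (0.28), GBP7 (0.24) and the helicase MOV10 (-0.30). CH25H had a limma adjusted p of 0.00264 and rests on 2 rows. With the set term CH25H was at 1.10 with a limma adjusted p of 0.0707, and CASP1 at 0.09. Between lung and liver derivatives FAS (0.41) and CTSS (0.36) were higher and TRAFD1, a negative regulator of innate signalling, was lower (-0.35). These 3 of 21 called genes stand beside 19.9% of all genes. The set term reduced the 3 differences to 0.18, 0.10 and -0.15, with 0 of 21 genes called by limma beside 0.0849% of all genes. At an unadjusted limma p under 0.05 there were 0 of 21, beside 454 of all 4713 genes in that fit.

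Of 14 measured genes of interferon signalling and its inputs, from a list of 16, 1 was called in liver derivatives and 5 in lung derivatives, beside the same 7.83% and 30.1% of all genes. JAK1, the kinase shared by all interferon receptors, read 10.84, 10.81, 10.70 and 10.83 on parental arrays, 10.45, 10.43 and 10.39 on liver arrays and 10.30, 10.31 and 10.59 on lung arrays. Every derivative array lay below every parental array. JAK1 was lower by 0.37 in liver (SE 0.08, limma adjusted p of 0.0116) and by 0.40 in lung derivatives (SE 0.08, limma adjusted p of 0.00495), and in lung derivatives by 0.43 with the set term (limma adjusted p of 0.0567). In lung derivatives TBK1, the kinase that activates IRF3 (-0.29), and the adaptor TRAF6 (-0.23) were lower, and the receptor chain IL22RA1 (0.26) and IFNG (0.42) were higher. With the set term 0 of the 14 were called by limma in lung derivatives, 4 at an unadjusted p under 0.05. Of all genes 5.75% were called in that fit, and 1110 of 4713 had an unadjusted limma p under 0.05. Among 14 measured other TRIM genes, TRIM8 was higher in liver derivatives (0.39), and TRIM45 was higher (0.38) and TRIM33 lower (-0.31) in lung derivatives. These were 1 and 2 of 14, beside 7.83% and 30.1% of all genes. With the set term TRIM8 was still called in liver derivatives (0.32), while TRIM45 (0.18) and TRIM33 (-0.13) were not called in lung derivatives, where limma called 0 of the 14, 3 at an unadjusted p under 0.05. Between lung and liver derivatives TRIM45 was higher (0.43) and TRIM8 (-0.52), TRIM33 (-0.35) and TRIM44 (-0.25) were lower, 4 of 14 beside 19.9% of all genes. After adding the set term these differences were 0.16, -0.25, -0.10 and -0.02, with 0 of 14 called by limma beside 0.0849% of all genes. At an unadjusted limma p under 0.05 there was 1 of 14, beside 454 of all 4713 genes in that fit.

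**Figure D5:**
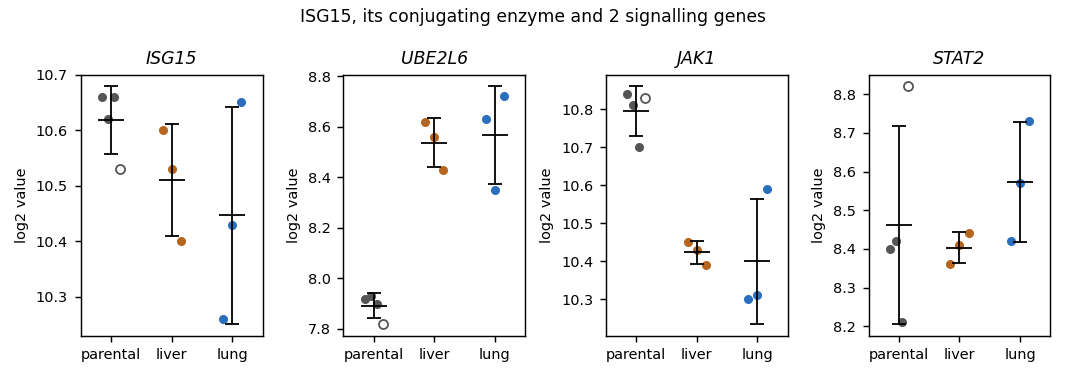
Points give the mean log2 value of ISG15, its conjugating enzyme UBE2L6, the receptor kinase JAK1 and STAT2 on each array, with bars for the group mean ± SD and an open circle for parental array 4. UBE2L6 is higher and JAK1 lower on all derivative arrays than on all parental arrays, while the groups overlap for ISG15 and STAT2.

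Markers of other cells that could be carried over from the host or the tissue were read beside these results, on human probes. The host was a mouse, so cells carried over from it would be mouse cells. Values on human probes are no direct measure of their number. The mean of 22 leukocyte genes, cells that express many interferon-induced genes, lay between 6.65 and 6.71 on parental, 6.76 and 6.81 on liver and 6.88 and 6.94 on lung arrays, while the mean of the 38 genes lay between 7.24 and 7.33, 7.28 and 7.33, and 7.35 and 7.41. Of the leukocyte genes 2 rose in liver derivatives, CD4 by 0.99 and LYZ by 0.97, and 20 of 22 were not called. In lung derivatives 7 rose and 1 fell (FCER1G, -0.46), with the pan-leukocyte gene PTPRC higher by 0.19 and LYZ by 1.64. These counts stand beside 7.83% of all genes called in liver derivatives (4.33% higher, 3.50% lower) and 30.1% in lung derivatives (12.9% higher, 17.3% lower). With the set term 3 of them (CD3D, CD4 and LYZ) were called in lung derivatives. Of 7 stromal genes LUM was lower in liver derivatives, and in lung derivatives 2 were higher and 2 lower. Of 6 lung epithelial genes 3 were higher in lung derivatives (SFTPA1, SFTPA2 and PDPN), and of 5 endothelial genes SELE was. The shares of all genes given for the leukocyte counts also stand beside these. PDPN is in both the stromal and the lung epithelial list. Limma with the set term called 0 of the 6 (2 at an unadjusted p under 0.05), 0 of the 5 (0 at an unadjusted p under 0.05) and, of the stromal genes, LUM. Of all genes 5.75% were called in that fit, and 1110 of 4713 had an unadjusted limma p under 0.05. Of 10 hepatocyte genes 0 were called by limma in liver derivatives, 2 at an unadjusted p under 0.05, beside 872 of all 4713 genes at that unadjusted threshold. Of 9 measured genes of colon carcinoma and simple epithelium 4 were called in each kind of derivative (2 in lung derivatives with the set term). Of all genes 7.83% were called in liver and 30.1% in lung derivatives. In liver derivatives RAB25 was higher (3.01), while ELF3 (-0.51), TSPAN8 (-1.12) and EHF (-0.47) were lower. In lung derivatives RAB25 (4.0) and ST14 (0.19) were higher, while ELF3 (-0.25) and TSPAN8 (-0.43) were lower. The part of these markers in the results was not tested, and in such bulk samples fewer cells of a type and less RNA per cell cannot be told apart.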

How the data were processed

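Expression was measured in 4 parental, 3 liver and 3 lung arrays. The deposited values are log2 expression values, which the authors made by RMA in oligo, an R package, with neither version nor summary level stated in the submitters' processing notes. They ran from 2.55 to 13.99, with array medians between 8.52 and 8.60, so no log was taken. RMA puts arrays on a common distribution, so a change in total RNA content cannot be seen. The number of arrays limits the precision.

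The table holds 65535 rows, of which 56949 list a gene in the platform annotation and 54806 list 1 symbol, giving 4713 genes after old symbols were updated. IFIT1B is listed under an older symbol, and 24 rows that list a member with another gene were not used for gene means. The mean of the log2 values of all rows of a gene entered a linear model in limma 3.58.1 (R 4.3.3) in which each group had its own mean, all 10 arrays shared the estimate of spread and no covariate was used. Each of the 3 contrasts got a two-sided moderated test (eBayes), with Benjamini-Hochberg adjustment over the 4713 genes, or over the 56949 rows for single rows. Every adjusted p in the text is from limma, and differences are of mean log2 values. An unadjusted limma p under 0.05 was held by 872 of the 4713 genes in liver and 1993 in lung against parental cells. It was held by 1816 in lung against liver cells. With the set term these counts were 902, 1110 and 454. The script was tested on simulated data.

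All 39 members are accounted for. Values by array were given for members called in at least 1 contrast, for some of them without the arrays of 1 group. The figure of the called members shows every array. For the brightest and dimmest members values on every array were given. For members with a called row, the row with the smallest adjusted p was described, rows being numbered in table order. Genes outside the members came from lists of other interferon-induced, signalling and TRIM genes and of cell type markers. The members and lists were chosen with earlier results of these data known. The alternatives were the brightest or median row, the array set or the replicate number as a term, other normalizations, a filter on dim features, only the groups compared, a variance trend and leaving out each array. The annotation's genome build was not given in the sources used here. The promoter coordinates are those of RefSeq on GRCh38.p14.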

Additional observations from a re-analysis of the deposited data

Results flagged for a closer look

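In 4 of 38 genes 1 parental array lay far from the other 3, and in each it was parental array 4. Chance flags about 1 in 20 groups of 4. IFI6 was lowest there at 8.84, and GBP2 at 5.46 and TRIM3 at 8.03 were also lowest there. PYHIN1 was highest there, at 5.85. The gap to the nearest other array decided each case.

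The difference between lung and liver derivatives, tested directly, passed for OAS1 at 0.70, for IFI44L at 0.38 and for IFIT5 at 0.27 (log2, limma adjusted p of 0.0156, 0.0156 and 0.0308). In IFIT5 the liver arrays lay below the parental arrays, and in OAS1 and IFI44L the lung arrays lay above them. Of the 5 rows of IFIT5, only 2 were higher in lung than in liver derivatives.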

How the results depend on the processing

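In liver against parental cells the count of 3 called genes stayed within 1.5 times under every alternative run, and between 2 and 3 when single arrays were left out. Its 4 called rows became 2 with the replicate block, 2 with only the groups compared and 8 with a variance trend, and 2 to 4 when single arrays were left out. In lung against parental cells 7 genes became 11 by the brightest row, 4 by the median row, 1 with the array set as a term and 11 with the replicate block, and 3 to 13 without single arrays, with the lowest count without lung array 1 (4 without parental array 1) and the highest without parental array 4. Its 41 rows became 3 with the array set and 11 with only the groups compared, and 14 to 86 without single arrays, the lowest without parental array 2 and the highest without parental array 4. In lung against liver cells 3 genes became 8 by the brightest row, 6 by the median row, 0 with the array set (3 at an unadjusted p under 0.05), 10 with the replicate block, 5 with centred arrays and 9 with only the groups compared. Without single arrays the count was 0 to 10, with 0 by limma without liver array 2 (6 at an unadjusted p under 0.05), liver array 3 (11) or lung array 1 (7). Its 42 rows became 0 with the array set (46 at an unadjusted p under 0.05) and 0 to 84 without single arrays, with 0 by limma without liver array 2 (84 at an unadjusted p under 0.05) or 3 (95). The brightest row of a gene reversed 2 differences between lung and liver cells, IFIT5 at -0.17 (limma adjusted p of 0.311) and IFITM3 at 0.54 (0.031). Over the 13 called differences of single genes, 188 of 244 alternative fits kept the call, 55 lost it and 1 reversed it. The cause of these changes was not tested.

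The replicate numbers did not pair the arrays: same-numbered arrays of different groups deviated together with correlations from -0.20 to 0.13 across genes. The replicate block leaves parental array 4 alone in its block, so that it adds nothing to the contrasts. By the filter on dim features 19 of 38 genes were left, and for the others the signal over background limits what can be seen.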

Other observations

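The 24 rows that list a member together with another gene were kept out of the gene means. In lung derivatives 4 of the differences from the parental line had a limma adjusted p under 0.05 over all rows, of which 13.1% were called: rows shared by the read-through TRIM6-TRIM34 with TRIM6 and with TRIM34 were higher by 1.63 (0.0155) and 1.69 (0.0272), a row shared by GBP1 and GBP3 by 0.78 (0.0325), and a row shared by TRIM22 and OR56B1 by 0.73 (0.0364). With the array set as a further term these were 1.83 (0.141), 0.55 (0.481), 0.72 (0.299) and 0.34 (0.516), and none was called by limma. In the row shared with TRIM34, parental arrays 1 to 4 read 4.98, 5.45, 5.68 and 6.89 and lung arrays 7.2, 7.36 and 7.77.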
